A study of Mus musculus with 10 samples.

Results

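The AP-1 transcription factors described here are 10 genes, namely Fos, Fosb and Fosl2 of the Fos group, Jun, Junb and Jund of the Jun group, Atf3, the Batf genes Batf and Batf3, and the small Maf gene Maff. They were picked by gene symbol as 10 of the 55421 genes in the deposited count table, and all 10 had enough counts to be tested in every comparison. Their mRNA was read in 10 RNA sequencing libraries from myeloid cells of mice bearing MC17-51 fibrosarcomas, taken 15 days after implantation. Myeloid-derived suppressor cells (MDSC), selected for GR-1, came from the spleen, with 2 libraries from Shp2f/f mice and 2 from Shp2f/fLysMcre mice. Tumor-associated macrophages (TAM), CD11b+F4/80+ cells, came from the tumor, sorted as live cells with CD45 and without Ly6G, with 3 libraries from each genotype. In both genotypes Ptpn11, the gene of the tyrosine phosphatase SHP-2, is floxed, and Shp2f/fLysMcre mice also carry Cre recombinase under control of the lysozyme M (LysM) promoter. This Cre is active in myeloid cells of every organ, so neither cell type was targeted alone, and the control mice lack Cre altogether. The question was what the loss of SHP-2 in myeloid cells changes in each population.

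AP-1 is a dimer of basic leucine zipper proteins that binds DNA. Fos proteins cannot pair with each other and need a Jun partner, whereas Jun proteins also pair among themselves; Atf3, the Batf proteins and the small Maf proteins use the same kind of zipper to enter further dimers. Fos and Jun are immediate early genes, switched on within minutes of growth factor, cytokine or stress signals through MAP kinases, and SHP-2 is known for passing receptor signals to the Ras and MAP kinase pathway. In macrophages, AP-1 dimers act on genes for cytokines and matrix proteases, and Batf proteins pair with Jun proteins at sites shared with interferon regulatory factors.

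The start regions of 5 members are shown because each holds a cAMP response element or a part or variant of one. RefSeq promoter windows of the GRCm38.p6 assembly, each 250 bases before to 50 bases after a transcription start, were held for all 10 members, in 12 windows since Maff has 3 starts. The printed stretches run 5′ to 3′ on the strand of the gene and reach from 120 bases upstream to the base before the start. The Batf stretch ends at 52 bases upstream, where its GENCODE gene model begins. The last 7 bases of the Atf3 stretch are the first bases of a GENCODE transcript. Capitals mark TGACGT, on either strand, in Fos, Atf3 and Batf, TGACATCA in Jun, and TGACGTCA in Maff.
Fos, chr12:85473770-85473889, + strand: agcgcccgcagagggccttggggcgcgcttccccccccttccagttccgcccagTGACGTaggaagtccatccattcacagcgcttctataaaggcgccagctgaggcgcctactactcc
Jun, chr4:95052223-95052342, - strand: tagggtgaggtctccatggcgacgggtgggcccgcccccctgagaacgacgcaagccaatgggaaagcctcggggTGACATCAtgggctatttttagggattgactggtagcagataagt
Atf3, chr1:191183334-191183453, - strand: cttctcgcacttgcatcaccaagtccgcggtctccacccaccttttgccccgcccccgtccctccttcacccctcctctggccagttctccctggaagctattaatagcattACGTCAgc
Batf, chr12:85686600-85686668, + strand: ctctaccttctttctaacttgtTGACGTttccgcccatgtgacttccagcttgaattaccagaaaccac
Maff, chr15:79347400-79347519, + strand: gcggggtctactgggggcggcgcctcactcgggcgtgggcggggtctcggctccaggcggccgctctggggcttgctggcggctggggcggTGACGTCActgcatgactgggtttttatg
The full cAMP response element TGACGTCA, which reads the same on both strands, was found in 1 of the 12 member windows, 29 bases upstream of the Maff start shown, and in 1.79% of all 32851 windows. The TRE TGACTCA, the element that Fos and Jun dimers bind best, was found in 0 member windows on either strand and in 5.20% of all windows. The CArG box, bound by serum response factor, was likewise found in 0 member windows and in 1.63% of all windows. Sites more than 250 bases upstream of a start lay outside the windows and were not searched. The shorter TGACGT and the variant TGACATCA were searched after the member sequences had been read. TGACGT, which lies inside TGACGTCA, was found in 4 member windows, those of Fos, Atf3, Batf and Maff, and in 7.51% of all windows. TGACATCA was found in 2 member windows, of Jun and Maff, and in 3.62% of all windows. The windows of Fosb, Fosl2, Junb, Jund and Batf3 held none of the motifs searched. All 10 members, with and without a match, were higher in TAM of Shp2f/fLysMcre mice. These matches are letters in a window and were not read as bound sites.

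The libraries held between 28844660 and 38222998 counts assigned to genes. Levels are given in CPM, which are counts scaled to a common library size. Ptpn11 read 121, 125 and 121 CPM in TAM Shp2f/f and 50.9, 54.2 and 53.8 CPM in TAM Shp2f/fLysMcre, a log2 fold change of -1.24 ± 0.04 (SE; edgeR adjusted p = 2.96e-09). In MDSC it read 113 and 99.2 CPM against 94.8 and 79.6 CPM, which did not pass the test (-0.29 ± 0.14, edgeR adjusted p = 0.361). In both cell types these counts cover the whole gene, including exons outside the floxed segment. The cause of the smaller difference in MDSC was not tested. The label of the MDSC libraries was only partly borne out by markers: the neutrophil gene S100a8 read 3260.0 to 9033 CPM there, but Ly6g, the antigen of granulocytic MDSC, read 8.91 to 33.2 CPM, the monocyte and macrophage receptor Csf1r 1029 to 1442 CPM, and 10 B and plasma cell markers summed to 1968 to 2591 CPM. TAM libraries read 1425 to 1695 CPM for Csf1r and 636 to 996 CPM for Adgre1, which encodes F4/80. Replicate 2 of MDSC Shp2f/fLysMcre stood apart, with 639 CPM over 10 fibroblast and stroma markers against 10.9 to 29.3 CPM in the other MDSC libraries. Islet markers summed to 882 to 6800.2 CPM in TAM Shp2f/f and to 6.61 to 85.3 CPM in TAM Shp2f/fLysMcre, and keratinocyte markers to 95.5 CPM in replicate 3 of TAM Shp2f/fLysMcre. Xist read 4.82 to 18.1 CPM in TAM Shp2f/f and 209 to 371 CPM in TAM Shp2f/fLysMcre, and 0.0289 to 0.0290 CPM against 119 to 132 CPM in MDSC, so this transcript of the inactive X chromosome of females moved with genotype. The Y-linked gene Ddx3y read 81.8 to 85.5 CPM in TAM Shp2f/f and 38.6 to 44.7 CPM in TAM Shp2f/fLysMcre. In MDSC it read 50.6 to 54.7 CPM against 22.3 to 27.8 CPM. The Shp2f/fLysMcre libraries thus held male and female transcripts together. By the study's methods, males and females were used in equal number throughout, whereas the MDSC Shp2f/f libraries held 1 Xist count each. The labels give neither sex nor the number of mice in a library, and the mix of sexes and genotype cannot be told apart here.

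Per exonic length, Fos was the most abundant member in all 4 groups. It read 591 ± 23.8 RPKM (CPM divided by the merged exonic length in kilobases; SD, n = 2) in MDSC Shp2f/f, 489.9 ± 3.14 RPKM in MDSC Shp2f/fLysMcre, 569 ± 27.7 RPKM in TAM Shp2f/f and 1192 ± 44.3 RPKM in TAM Shp2f/fLysMcre (n = 3 in each TAM group). Junb, a Jun protein with weaker activation than Jun itself, came next in all 4 groups, at 332 ± 13.3, 322 ± 12.6, 532 ± 23.7 and 773 ± 29.2 RPKM in the same order. The library ranges of Fos and Junb overlapped in TAM Shp2f/f and were separate in the other 3 groups. Below them the order differed between cell types. In MDSC Shp2f/f it ran Jund, Jun, Atf3, Fosb, Batf, Fosl2, Batf3 and Maff, from 226 RPKM down to 3.82 RPKM, and of these neighbours Jun and Atf3 overlapped. MDSC Shp2f/fLysMcre libraries had the same order, with overlap between Batf and Fosl2 and between Batf3 and Maff. In TAM Shp2f/f the order ran Jund, Fosb, Atf3, Jun, Fosl2, Maff, Batf and Batf3, from 182 RPKM down to 0.522 RPKM, with no overlap between neighbours. In TAM Shp2f/fLysMcre, Atf3 at 347 RPKM, Fosb at 330.0 RPKM, Jun at 315 RPKM and Jund at 294 RPKM formed a run in which each neighbour overlapped the next. Batf3, which directs the development of a dendritic cell type, was the least abundant member in TAM, with 25 to 92 raw counts per library, and Maff was the least abundant in MDSC.

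**Figure D1:**
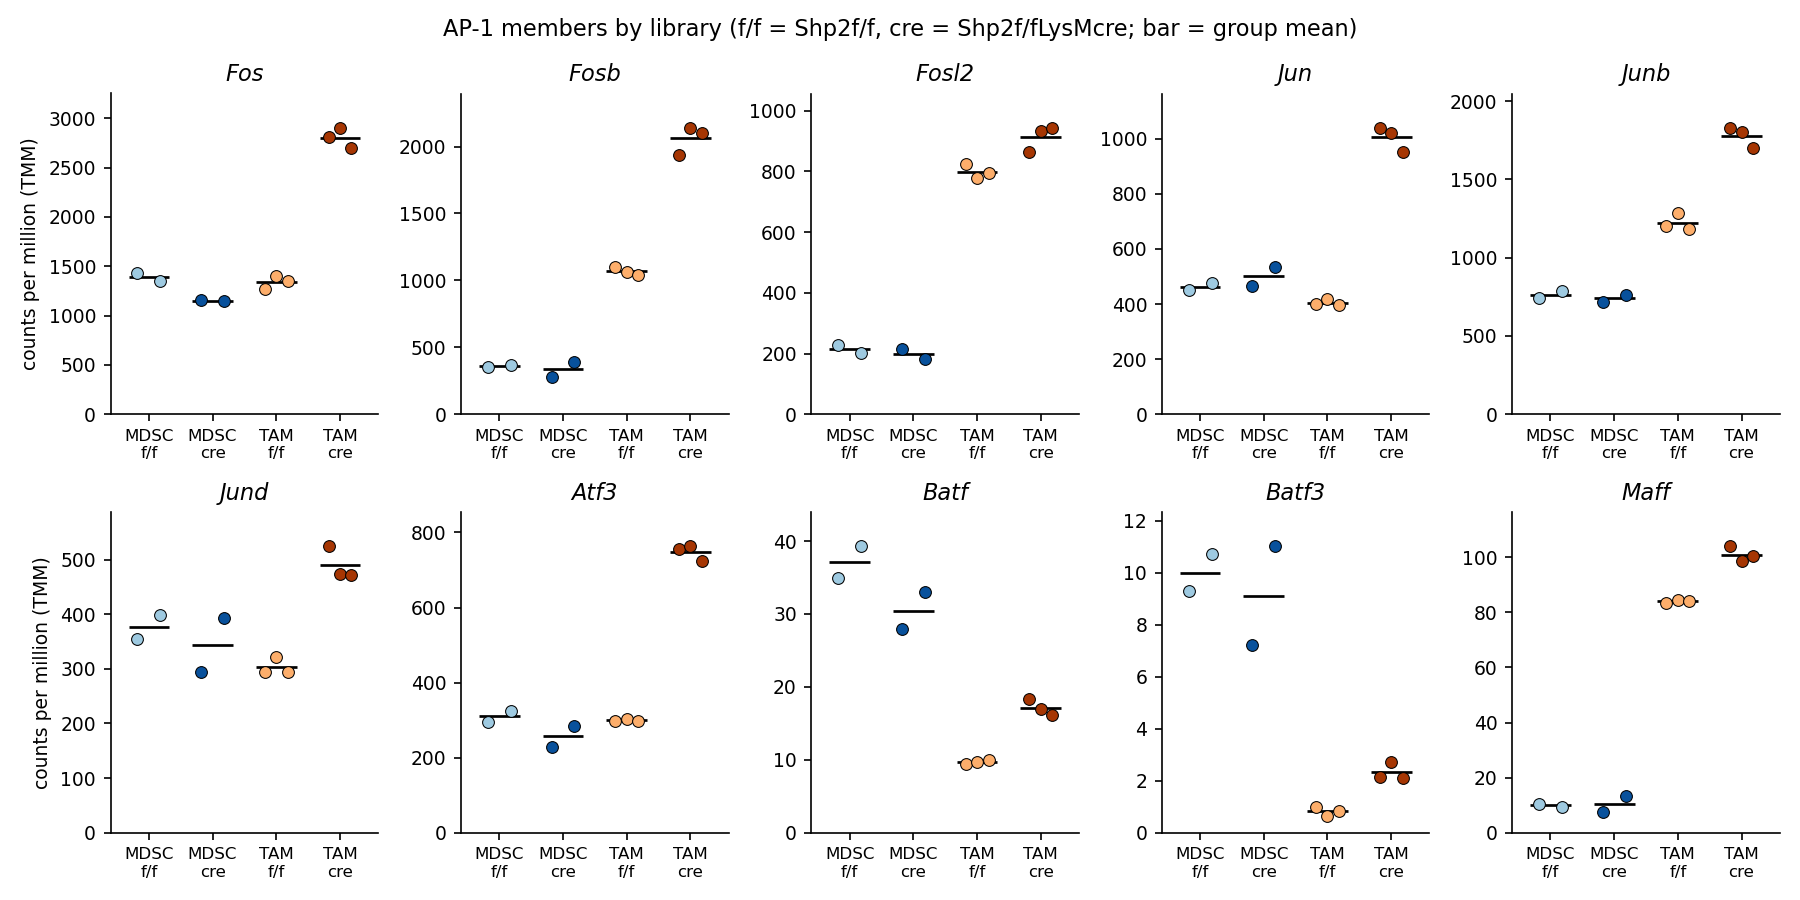
TMM-scaled CPM of each AP-1 member in each of the 10 libraries, with a linear axis from 0, 1 point per library and a bar at the group mean. The 3 TAM Shp2f/fLysMcre libraries lie above the 3 TAM Shp2f/f libraries for all 10 members, and for Fos they lie between 2694 and 2902 CPM against 1270.4 to 1400.0 CPM.

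In TAM, all 10 members were higher in Shp2f/fLysMcre libraries than in Shp2f/f libraries (edgeR quasi-likelihood test, Benjamini-Hochberg adjusted p under 0.05 over 14446 genes). Of all genes tested, 50.2% passed, and 23.9% of all tested were higher and 26.3% lower. The library ranges of the 2 genotypes did not overlap for any of the 10 members, which also held for 57.9% of all genes tested. The median log2 fold change of the members was 0.85, beside -0.01 over all genes tested. Scaling by total counts moved the median of all genes to -0.11 and the split of calls from 3452 higher and 3805 lower to 2342 and 5227, under which 9 members passed, all higher, and Fosl2 did not (0.06, edgeR adjusted p = 0.300). In bulk samples, fewer cells of a type and less RNA per cell cannot be told apart.

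Of the Fos group, Fos and Fosb rose about alike. Fos, the founding member, read 1270.4, 1400.0 and 1347 CPM in TAM Shp2f/f and 2811, 2902 and 2694 CPM in TAM Shp2f/fLysMcre. The lowest of the second group was well above the highest of the first, and the log2 fold change was 1.03 ± 0.04 (SE; edgeR adjusted p = 8.61e-09). Fosb, a close relative that responds to the same signals, read 1097, 1066 and 1043 CPM against 1939, 2139.7 and 2103 CPM. Its groups lay as far apart, at 0.91 ± 0.04 (edgeR adjusted p = 3.42e-08). Fosl2, the Fos-related antigen FRA-2, which lacks the strong activation domain of Fos, read 824, 779.5 and 795 CPM against 865, 934 and 944 CPM. The gap between its groups was narrow and the log2 fold change was 0.16 ± 0.04 (edgeR adjusted p = 0.0102), the smallest of the 10. Fosl1, a Fos gene outside the 10 members, went the other way in TAM. It read 15.0 ± 0.38 CPM in Shp2f/f and 13.2 ± 0.90 CPM in Shp2f/fLysMcre (SD, n = 3), at -0.22 ± 0.06 (edgeR adjusted p = 0.0153).

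Of the Jun group, Jun rose most. Jun, the main target of Jun N-terminal kinases, read 399, 418 and 395 CPM in TAM Shp2f/f and 1039, 1022 and 952 CPM in TAM Shp2f/fLysMcre. The 2 groups were far apart beside their spread, at a log2 fold change of 1.28 ± 0.04 (edgeR adjusted p = 3.44e-09). Junb read 1201, 1287 and 1185 CPM against 1829.5, 1802 and 1702 CPM. Its log2 fold change was 0.50 ± 0.04 (edgeR adjusted p = 1.12e-06). Jund, often the most steadily expressed Jun gene, read 295, 321 and 293 CPM against 524, 474 and 472 CPM. It rose by 0.66 ± 0.05 on the log2 scale (edgeR adjusted p = 1.44e-06). Jun, Junb and Jund overlap antisense or opposite-strand genes over 232, 173 and 877 exonic bases, and the strand setting of the counting was not stated. Over the 10 libraries those partners, Junos, Prdx2 and Gm11175, held 4364, 78644 and 670 counts beside 207009, 406721 and 130768 counts for the Jun genes.

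Atf3, a stress-induced factor that can repress transcription as a homodimer, read 297, 304 and 297 CPM in TAM Shp2f/f and 755, 763 and 724 CPM in TAM Shp2f/fLysMcre. Its replicates were tight in both groups and the log2 fold change was 1.28 ± 0.04 (edgeR adjusted p = 2.20e-09). Both Batf genes, whose proteins lack an activation domain, also rose from low levels. Batf read 9.41, 9.64 and 9.95 CPM against 18.4, 17.0 and 16.1 CPM, a log2 fold change of 0.79 ± 0.07 (edgeR adjusted p = 2.69e-06). Batf3 read 1.01, 0.652 and 0.845 CPM against 2.13, 2.73 and 2.09 CPM. This was the largest fitted change of the 10, at 1.44 ± 0.22, and also the one with the widest error (edgeR adjusted p = 0.000261). Of 10 markers of the conventional dendritic cells (cDC1) that need Batf3, 8 could be tested in TAM, with Tlr3 higher and Cadm1 and Flt3 lower in Shp2f/fLysMcre. The 10 summed to 215 to 219 CPM in Shp2f/f and to 213 to 226 CPM in Shp2f/fLysMcre. Of the defining markers, Xcr1 and Clec9a read at most 0.109 and 0.118 CPM in any TAM library and were at 0 in 2 TAM libraries each. The part of such cells in the Batf3 value was not tested. Maff, a small Maf protein with no activation domain, read 83.3, 84.4 and 84.3 CPM against 104, 98.6 and 100.4 CPM. Its groups were separate and the difference small, at 0.23 ± 0.04 (edgeR adjusted p = 0.000308).

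**Figure D2:**
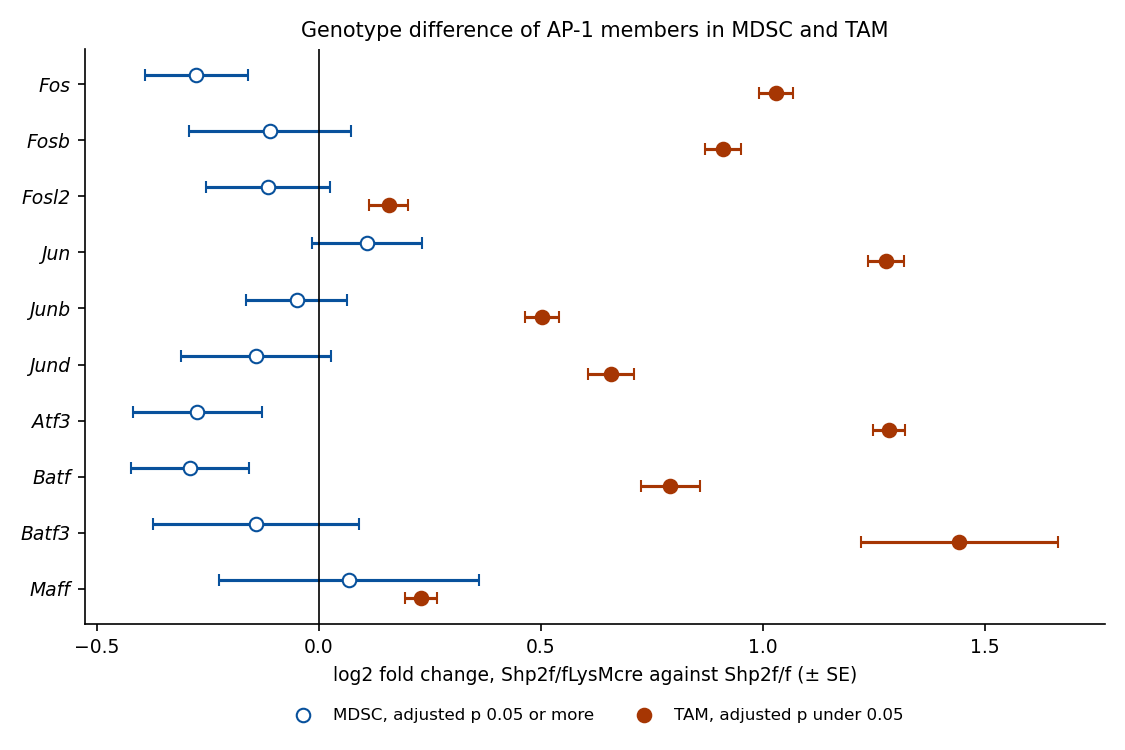
Log2 fold change of Shp2f/fLysMcre against Shp2f/f for each AP-1 member, with bars of 1 SE, in MDSC (blue) and TAM (brown); filled points passed the edgeR test at an adjusted p under 0.05. All 10 TAM values are filled and lie between 0.16 and 1.44, whereas no MDSC value is filled and they lie between -0.29 and 0.11.

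In MDSC, 0 of the 10 members passed the test between genotypes, where 4.28% of 14806 genes passed, and 3.76% of all tested were higher in the mutant and 0.520% lower. Before adjustment, edgeR gave 0 members with p under 0.05 and DESeq2 gave 1, which was Fos, and DESeq2 also called 0 after adjustment. The median log2 fold change of the members was -0.13, beside -0.01 over all genes tested, and 8 of the 10 values were below 0. The biological coefficient of variation was 0.189, against 0.0595 in TAM.

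Separate ranges were seen for 3 members, all lower in Shp2f/fLysMcre, and for 48.9% of all genes tested. Fos read 1429 and 1350.1 CPM in MDSC Shp2f/f and 1158 and 1147 CPM in MDSC Shp2f/fLysMcre. The lower pair was tight, but the log2 difference of -0.28 ± 0.12 had a 95% interval from -0.56 to 0.01 (edgeR adjusted p = 0.280). Atf3 read 294 and 325 CPM against 229.8 and 285 CPM, a log2 difference of -0.27 ± 0.15 (edgeR adjusted p = 0.394). Batf read 34.9 and 39.3 CPM against 27.9 and 33.0 CPM, a log2 difference of -0.29 ± 0.13 (edgeR adjusted p = 0.321). In both genes the ranges were separate by a narrow gap, set by replicate 2 of MDSC Shp2f/fLysMcre. Jun read 449.5 and 475 CPM against 465 and 535 CPM and Junb 741 and 785 CPM against 719.6 and 761 CPM, with overlap in both. Fosb at 356 and 364 CPM was bracketed by the Shp2f/fLysMcre libraries at 277 and 394 CPM. The other members, Fosl2, Jund, Batf3 and Maff, overlapped as well, and their log2 differences ran from -0.14 to 0.07.

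The MDSC result rested on replicate 2 of Shp2f/fLysMcre, the library with stroma transcripts. Without it, 4 members were lower in Shp2f/fLysMcre, namely Atf3 at -0.43, Batf at -0.41, Fosb at -0.37 and Jund at -0.36 on the log2 scale (edgeR adjusted p from 0.00924 to 0.0346), where 2729 of 15143 genes passed in place of 633, 1921 of them higher and 808 lower. Leaving out replicate 1 of the same group in its place gave 0 members by edgeR, 2 of them at an unadjusted p under 0.05, and 4406 genes. Leaving out either Shp2f/f library gave 0 members, also at an unadjusted p under 0.05, and 1 gene. In each of these fits the lone library of a group was assumed to vary like the others. Neutrophil and MDSC markers moved with genotype in the same libraries. With all libraries kept, 6 of 10 rose, beside 3.76% of all genes tested. The sum of these markers went from 9527 to 9773 CPM in Shp2f/f to 25387 to 30602 CPM in Shp2f/fLysMcre. Their part in the AP-1 values was not tested.

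Whether the genotype difference itself differed between cell types was tested as an interaction over all 10 libraries. By the study's methods the 2 cell types came from the same mice, but the labels tie no library to a mouse. Libraries that share mice may thus enter as if they were independent. The genotype difference was larger in TAM for 8 members, where 24.9% of 16581 genes passed, 12.2% with a higher and 12.7% with a lower value in TAM. With total-count scaling these 2030 and 2102 genes became 1234 and 3132. The fit used 1 dispersion per gene for both cell types, although their biological coefficients of variation were 0.189 and 0.0595. The SE of Fos came out at 0.09, below the 0.12 of MDSC alone, so the SE and adjusted p of this test may be too small. With limma voom weights per cell type 8 members passed, all larger in TAM, where 2803 of 16581 genes passed, 1522 higher and 1281 lower. The difference between the log2 fold changes was 1.59 ± 0.13 for Atf3, 1.61 ± 0.33 for Batf3, 1.33 ± 0.09 for Fos and 1.20 ± 0.11 for Jun, the last 2 with edgeR adjusted p = 1.49e-05 and 5.11e-05. It was 1.11 ± 0.13 for Batf, 1.05 ± 0.17 for Fosb, 0.83 ± 0.17 for Jund and 0.58 ± 0.09 for Junb, with edgeR adjusted p of at most 0.00563 in these 4. Fosl2, at 0.30 ± 0.12 (edgeR adjusted p = 0.0909), and Maff, at 0.18 ± 0.26 (edgeR adjusted p = 0.660), did not pass. The 95% interval for Maff ran from -0.40 to 0.77. Ptpn11 itself stood at -1.24 ± 0.04 in TAM and, without passing, at -0.29 ± 0.14 in MDSC. Cell type and the extent of Ptpn11 loss therefore cannot be told apart in this test.

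TAM and MDSC of control mice were then compared, to set the levels by cell type. The cells came from different organs and were isolated differently, tumors by collagenase digestion and cell sorting and spleens by filtering and magnetic beads, so cell type, organ and isolation cannot be told apart. In Shp2f/f mice 8 members passed, 4 higher and 4 lower in TAM, where 78.8% of 15659 genes passed, 40.0% higher and 38.8% lower. The 8 also had separate ranges, which held for 86.0% of all genes. Maff differed most on the higher side, from 9.23 to 10.6 CPM in MDSC to 83.3 to 84.4 CPM in TAM, a log2 fold change of 3.08 ± 0.07 (edgeR adjusted p = 2.28e-10). Fosl2 at 1.89 ± 0.06, Fosb at 1.57 ± 0.05 and Junb at 0.68 ± 0.05 were also higher in TAM. The Batf genes lay on the other side, with Batf at -1.94 ± 0.07 and Batf3 at -3.59 ± 0.18, from 9.29 to 10.7 CPM in MDSC to 0.652 to 1.01 CPM in TAM. Jund at -0.32 ± 0.06 and Jun at -0.20 ± 0.05 were slightly lower in TAM. Fos and Atf3 did not pass, at -0.06 ± 0.05 and -0.05 ± 0.05 (edgeR adjusted p = 0.345 and 0.369), with 95% intervals from -0.18 to 0.06 and from -0.17 to 0.06.

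In Shp2f/fLysMcre mice all 10 members passed, 8 higher and 2 lower in TAM, where 63.5% of 15741 genes passed, 29.8% higher and 33.7% lower, and all 10 had separate ranges beside 77.7% of all genes. Fos now stood at 1.29 ± 0.07 and Atf3 at 1.54 ± 0.11 on the log2 scale. Jun at 1.01 ± 0.09 and Jund at 0.52 ± 0.14 were higher in TAM, where in Shp2f/f mice they had been lower. Jund lost its call (edgeR adjusted p = 0.0189) when total counts were used for scaling or replicate 1 of TAM Shp2f/fLysMcre was left out, and with the replicate number as a block (0.55, edgeR adjusted p = 0.0820). Batf at -0.82 ± 0.11 and Batf3 at -1.96 ± 0.24 stayed lower in TAM. Fosb, Fosl2, Junb and Maff, already higher in control TAM, stood at 2.63 ± 0.18, 2.20 ± 0.11, 1.27 ± 0.08 and 3.28 ± 0.26. Total-count scaling turned the split of calls from 4689 higher and 5301 lower to 3696 and 6561. This comparison uses the same mutant libraries as the genotype comparisons and adds no independent libraries.

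**Figure D3:**
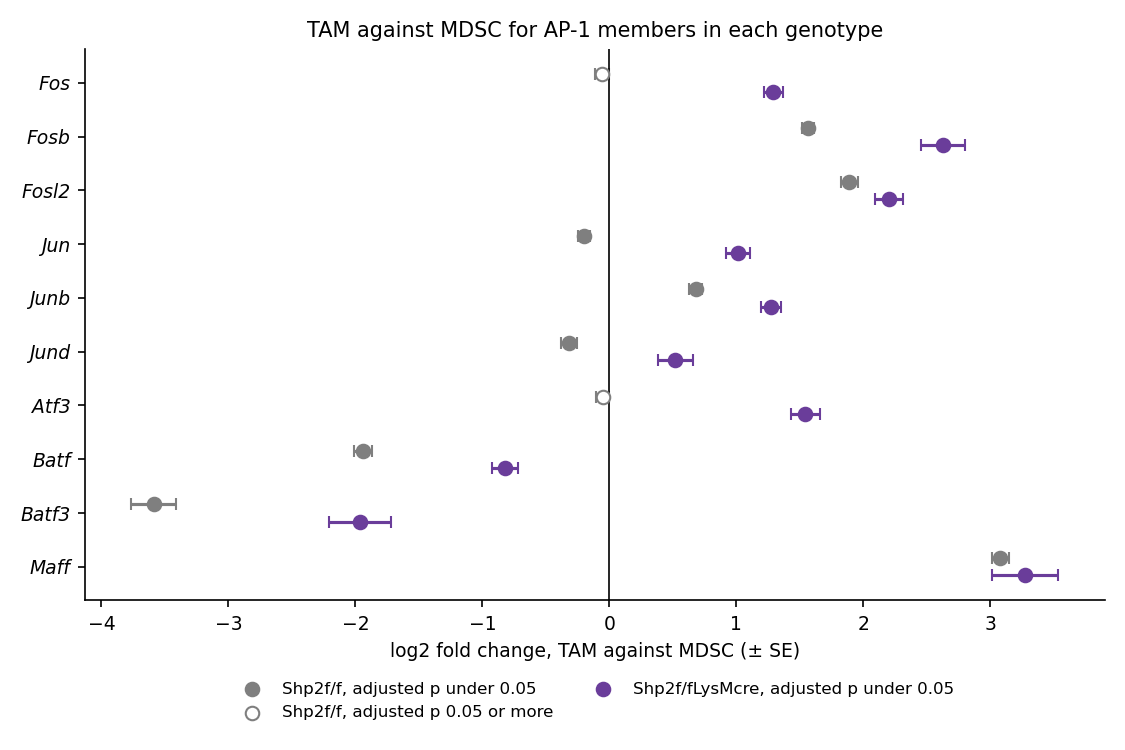
Log2 fold change of TAM against MDSC for each AP-1 member in Shp2f/f mice (grey) and in Shp2f/fLysMcre mice (purple), with bars of 1 SE; filled points passed the edgeR test. Fos at -0.06 and Atf3 at -0.05 sit at 0 in Shp2f/f mice and at 1.29 and 1.54 in Shp2f/fLysMcre mice, while Batf and Batf3 are below 0 and Maff is near 3 in both.

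The make-up of the Fos and Jun groups per exonic length differed with cell type and, in some measures, with genotype. The 3 Fos members, without Fosl1, summed to 671 ± 24.6 RPKM in MDSC Shp2f/f, 564 ± 7.76 RPKM in MDSC Shp2f/fLysMcre, 823 ± 22.8 RPKM in TAM Shp2f/f and 1616 ± 49.98 RPKM in TAM Shp2f/fLysMcre (SD, n = 2, 2, 3 and 3). The 3 Jun genes summed to 703 ± 37.7, 685 ± 70.3, 840.4 ± 37.0 and 1382 ± 57.2 RPKM in the same order. The ratio of the Jun sum to the Fos sum was 1.02 ± 0.03 in TAM Shp2f/f and 0.855 ± 0.0386 in TAM Shp2f/fLysMcre. The groups did not overlap, and separate ranges in CPM held for 57.9% of all genes tested in TAM. In MDSC it was 1.05 ± 0.09 and 1.21 ± 0.108, with the higher mean in Shp2f/fLysMcre and ranges separate by a narrow gap. The higher value of MDSC Shp2f/fLysMcre was that of replicate 2, the library with stroma transcripts. With 2 libraries per genotype, separate ranges in CPM held for 48.9% of all genes tested in MDSC. A genotype effect on the ratio in MDSC therefore cannot be read from these ranges. The Fos and Jun sums are mRNA sums, with no measure of protein or of dimers.

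Among the Fos members, Fos made up 88.1% ± 0.321 of the per-length sum in MDSC Shp2f/f. In TAM Shp2f/f it made up 69.1% ± 1.51, Fosb 20.8% ± 0.981 and Fosl2 10.04% ± 0.557. In TAM Shp2f/fLysMcre the Fosl2 share was 5.85% ± 0.294 and the Fos share 73.7% ± 1.21. Both shares were separate from those of TAM Shp2f/f, whereas the Fosb share of 20.4% ± 0.929 overlapped. Separate ranges in CPM held for 57.9% of all genes tested in TAM. Within the Jun group, Junb made up 63.3% ± 0.0782 in TAM Shp2f/f and 55.9% ± 0.513 in TAM Shp2f/fLysMcre, and Jun 15.1% ± 0.210 and 22.8% ± 0.260. The Jund share, 21.6% ± 0.193 and 21.3% ± 0.720, overlapped between genotypes. In MDSC the Jun group was spread more evenly, with Junb at 47.2% ± 0.632 and Jund at 32.2% ± 0.941 in Shp2f/f mice. The Jun share there was 20.6% ± 0.309 in Shp2f/f and 22.9% ± 0.101 in Shp2f/fLysMcre, without overlap. Separate ranges in CPM held for 48.9% of all genes tested in MDSC, so a genotype effect on this share cannot be read from them. In MDSC Shp2f/fLysMcre, Junb at 47.1% ± 3.003, Jund at 29.9% ± 3.10 and Fos at 86.8% ± 1.75 of their groups overlapped with Shp2f/f.

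**Figure D4:**
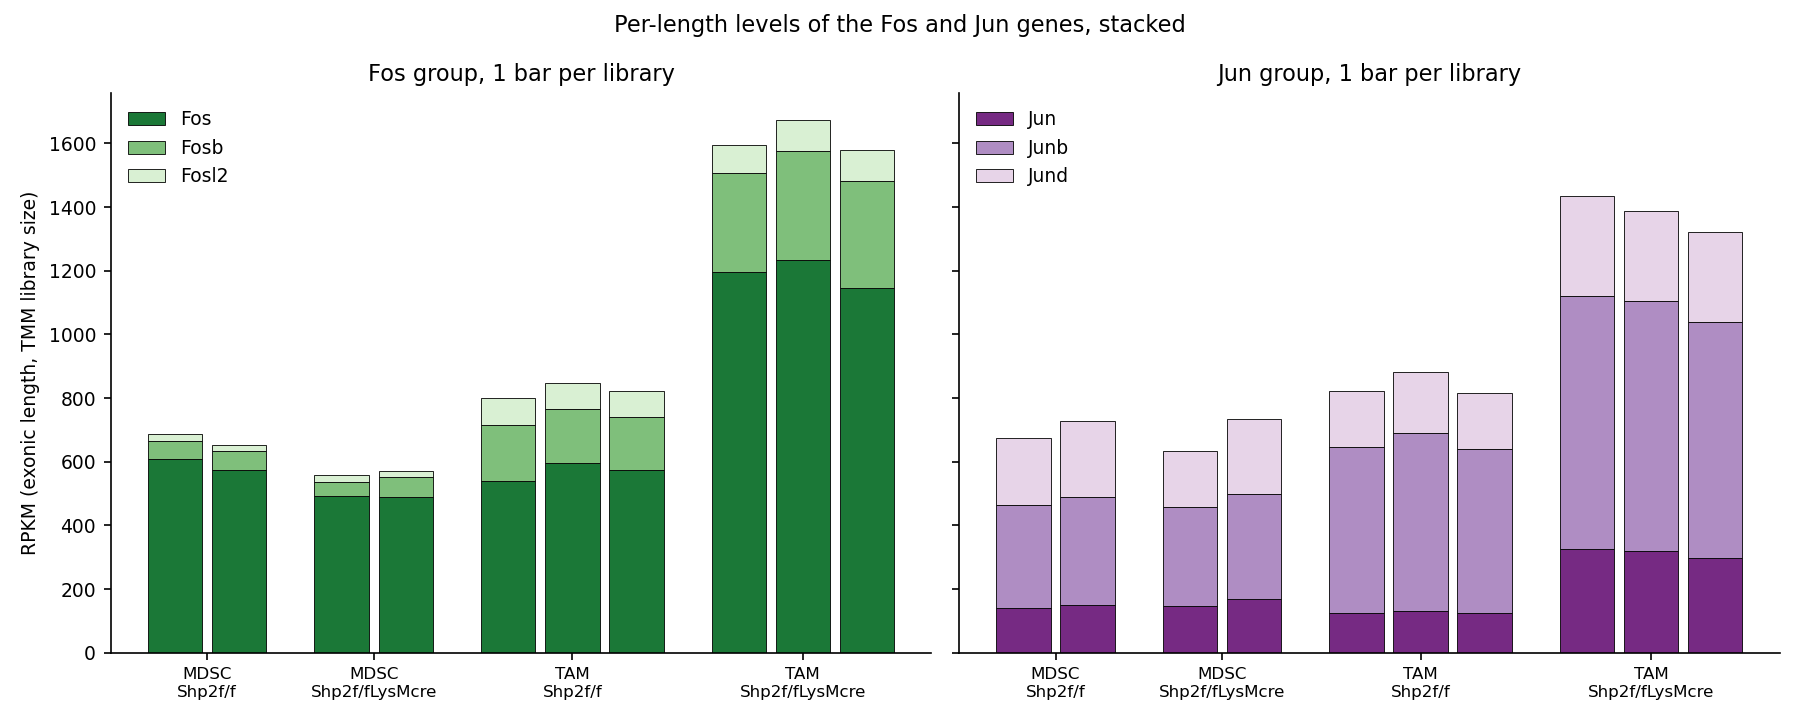
Per-length levels (RPKM) of the 3 Fos members (left) and the 3 Jun members (right), stacked, with 1 bar per library and axes from 0. The TAM Shp2f/fLysMcre bars are the tallest in both panels, with mean sums of 1616 RPKM and 1382 RPKM, and the Fos segment is the largest part of every left bar.

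The members hold 2 pairs of neighbours in the genome. Fos (chr12:85473890-85477273) and Batf (chr12:85686669-85709087) lie 209 kb apart on the same strand of GRCm38, with 4 annotated genes between them, of which 2 had enough counts to be tested. The protein-coding gene of the pair is Jdp2, which encodes a Jun dimerization protein that represses AP-1 sites. Jdp2 read 489, 498 and 469.6 CPM in TAM Shp2f/f and 296, 283 and 265 CPM in TAM Shp2f/fLysMcre. All 3 mutant libraries were below the control libraries, with a log2 fold change of -0.82 ± 0.04, so it fell where Fos and Batf on either side rose. In MDSC, Jdp2 read 17.4 and 16.9 CPM against 29.6 and 26.7 CPM and rose by 0.71 ± 0.12 (edgeR adjusted p = 0.0398). Batf3 and Atf3 lie 61.4 kb apart on chromosome 1, on opposite strands, with 3 annotated genes between them, of which Fam71a was tested and did not pass in either cell type.

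**Figure D5:**
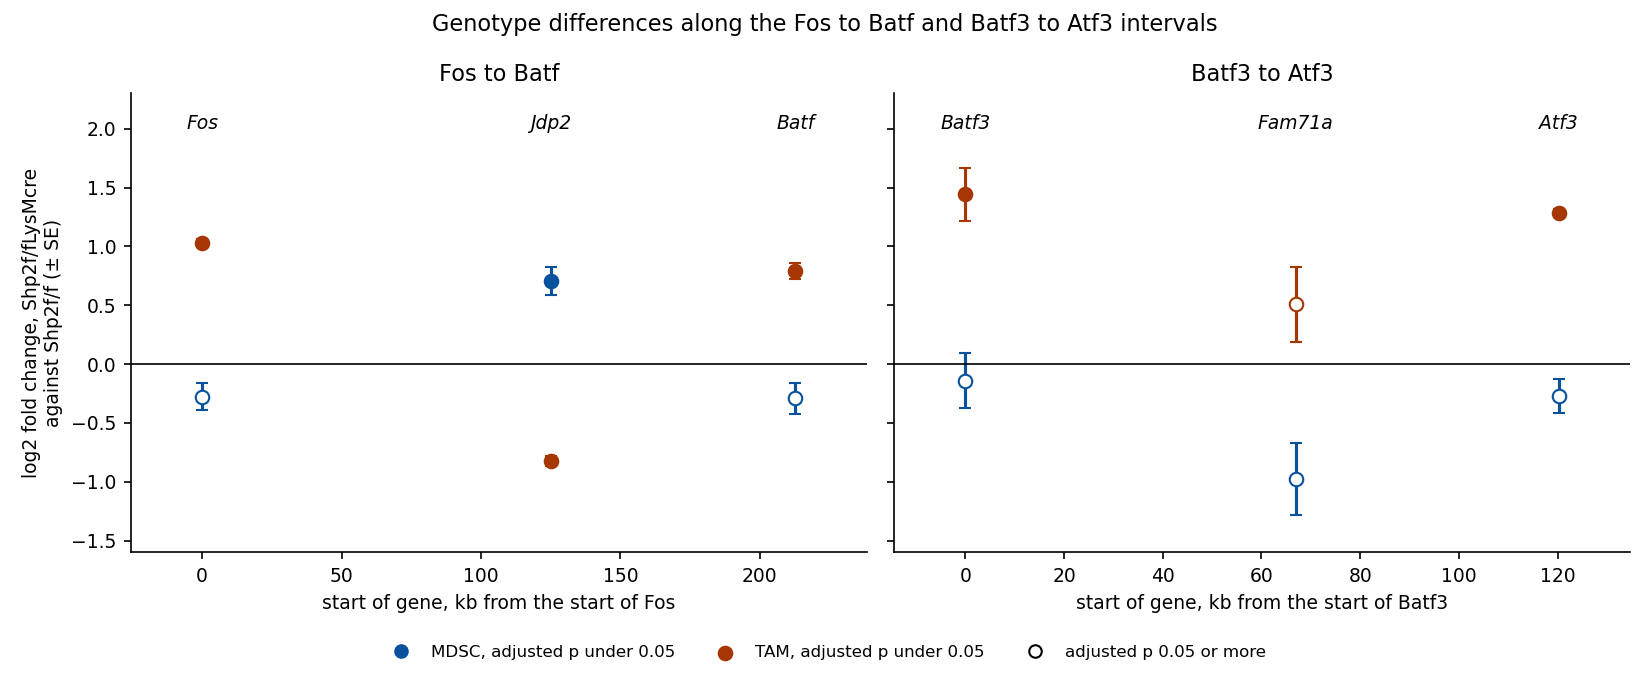
Log2 fold change of Shp2f/fLysMcre against Shp2f/f with bars of 1 SE for the tested protein-coding genes from Fos to Batf (left) and from Batf3 to Atf3 (right), against the distance of each start in kb from the start of the first gene; filled points passed the edgeR test. In TAM, Jdp2 at -0.82 lies between Fos at 1.03 and Batf at 0.79.

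Further genes of the network were counted in lists chosen by known role, to be read against the 50.2% of all genes that passed in TAM with a median of -0.01 and the 4.28% that passed in MDSC. Of 22 other AP-1 and related leucine zipper genes, 15 passed in TAM, 11 rising and 4 falling, with a median of 0.15. Among those with the largest changes were Maf, a large Maf protein, at 0.85 ± 0.05 and Jdp2 at -0.82 ± 0.04. In MDSC 3 of the 22 passed, among them Fosl1 at 1.45 ± 0.26 from a level of 0.984 CPM and Jdp2 at 0.71 ± 0.12. Jdp2 thus passed in opposite directions in the 2 cell types. Of 20 MAP kinase cascade genes, 10 rose and 4 fell in TAM with a median of 0.09, led by Map3k8, an activator of the ERK branch, at 1.002 ± 0.04, and by Map3k1, an activator of the JNK branch, at 0.64 ± 0.05. In MDSC only Mapk13 of the 20 passed, at 0.87 ± 0.13. Of 12 tested genes for serum response factor, its ternary complex partners and CREB factors, 9 passed in TAM, all of them higher, with a median of 0.16. In MDSC, edgeR called 0 of these 12 and DESeq2 called 1, with 2 at an unadjusted p under 0.05 by either tool.

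Immediate early genes outside AP-1 moved beside the members in TAM. Of 16, 13 rose and 3 fell, with a median of 0.60, led by Klf2 at 2.01 ± 0.05, the phosphatase gene Dusp1, which switches MAP kinases off, at 1.13 ± 0.03, and Btg2 at 0.92 ± 0.05. Their summed level was 6119.8 to 6403 CPM in TAM Shp2f/f and 10752 to 11237 CPM in TAM Shp2f/fLysMcre. Of 8 inducible heat shock genes, 2 rose and 5 fell, Hspa1a at 1.91 ± 0.07, Hspa1b at 1.23 ± 0.08 and Hspe1 at -0.55 ± 0.05 changing most. The part of either list in the AP-1 values was not tested. In MDSC, edgeR called 0 of the 16 early genes, with 2 at an unadjusted p under 0.05, and DESeq2 called 2, with 3. Neither tool called any of the 8 heat shock genes there, with 1 at an unadjusted p under 0.05 by each. Of 19 tested genes known as AP-1 targets, 11 rose and 5 fell in TAM, with a median of 0.29. The gene for heme oxygenase, Hmox1, rose by 1.37 ± 0.05 and the macrophage elastase gene Mmp12 by 0.80 ± 0.04, while Mmp9, a gelatinase gene often used as an AP-1 readout, changed by -1.06 ± 0.03, from 4071 ± 161 CPM to 2007 ± 55.7 CPM (SD, n = 3). In MDSC edgeR called 0 of 18 tested targets, with 9 at an unadjusted p under 0.05, and DESeq2 called 5.

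Markers of macrophages, the sorted cells themselves, and markers of other cells also moved with genotype in TAM, beside the AP-1 values. Their counts are to be read against the 50.2% of 14446 genes that passed there, 23.9% higher and 26.3% lower. In calls of either direction, the neutrophil, B and plasma cell, and fibroblast lists lay near that share. All 10 macrophage markers rose, summing to 12697 to 13347 CPM in Shp2f/f and to 20161 to 22402 CPM in Shp2f/fLysMcre. Of 12 T and NK cell markers 10 fell, their sum going from 43.7 to 46.0 CPM down to 23.6 to 24.9 CPM, and all 7 tested islet markers fell. Of 9 tested neutrophil markers 5 rose, the sum going from 300.3 to 318 CPM up to 483 to 510.2 CPM. Of 7 tested markers of migratory and other dendritic cells (cDC2) 2 rose and 3 fell, while their sum went from 1622 to 1695 CPM up to 2077 to 2303 CPM. Of 5 tested B and plasma cell markers 3 rose, the sum going from 14.4 to 14.6 CPM up to 32.1 to 34.0 CPM. Of 10 fibroblast and stroma markers 1 rose and 4 fell, the sum going from 271 to 281 CPM down to 251 to 269 CPM. The sort gate, CD45+CD11b+F4/80+Ly6G- live cells, would remove T cells, B cells, neutrophils, islet cells and fibroblasts. The part of these cells in the AP-1 values was not tested. All 10 members kept their call without each TAM library in turn, which does not bear on markers that moved in every library of a group.

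Over the 10 libraries, the genes whose log2 CPM most resembled that of Fos among the 8846 genes whose mean reached 10 CPM were Rnd3, Arid5a, Sirt2, Btg2 and Atf3, with Pearson's r from 0.995 down to 0.988. For Batf they were Irf5, Sat1, Flot1, Retreg3 and Pld4, with r from 0.998 down to 0.994. The 10 libraries form 4 tight groups, so these values mainly describe 4 group means, and they are given as a description only.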

How the data were processed

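The authors prepared poly(A)-selected libraries with a stranded kit, trimmed reads with Cutadapt 2.5 after FastQC 0.11.5, aligned them to GRCm38 with STAR 2.7.3a and counted reads per Ensembl gene with featureCounts (Subread 1.6.2). The counts used here are the raw whole-number counts the authors deposited, between 28844660 and 38222998 per library. The strand setting and the treatment of reads shared between genes are not given in the sources used here. The normalized signal that the authors deposited, counts divided by 1 size factor per sample, served only as a check and had values for all 10 members. Symbols and exonic lengths came from GENCODE vM21, whose exons may differ slightly from those counted, and 99.5% of identifiers had a symbol.

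Groups came from the sample titles. The labels do not say whether libraries are separate mice, so p-values measure the spread between these libraries. Genotype was tested within MDSC and within TAM, as an interaction over all 10 libraries, and TAM was tested against MDSC within each genotype, with edgeR 4.0.16 in R 4.3.3 (filterByExpr at a minimum count of 10, TMM factors, quasi-likelihood F test, Benjamini-Hochberg adjustment over all genes tested, threshold 0.05). Levels are TMM-scaled CPM, or RPKM per merged exonic length. Standard errors are the log2 fold change divided by the square root of F, and 95% intervals follow from them. Fits that span both cell types share 1 dispersion per gene, so their errors do not follow the spread of either cell type alone. The genotype and interaction tests were also run on simulated counts. For the interaction the simulated spread was the same in both cell types, unlike the data, so those runs do not cover unequal spread. Alternatives were DESeq2 1.42.0, other size factors, total-count scaling, other filters, the replicate number as a block, 1 fit of all 10 libraries, limma 3.58.1 voom with weights per cell type, and leaving out each library.

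The members and gene lists were chosen with earlier results of these data known, and the lists by known role. All members are named in every comparison. Of each other list, at most the 3 genes with the largest log2 fold change among those past the threshold are named for each genotype comparison. Marker genes used to check labels and the TAM value of Fosl1 are given besides. Of the genes this rule names, 1 is not reported here. Promoter windows were searched on both strands. No protein sequence was used here.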

Additional observations from a re-analysis of the deposited data

Results flagged for a closer look

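The test of the difference between the 2 cell types picked out 8 members, for which the genotype difference in TAM exceeded that in MDSC. Of 16581 genes, 24.9% passed this test, 12.2% with a higher and 12.7% with a lower value in TAM. Its SE and adjusted p may be too small, since 1 dispersion per gene served both cell types. Cell type and the extent of Ptpn11 loss cannot be told apart in it. The excess on the log2 scale was 1.33 for Fos, 1.05 for Fosb, 1.20 for Jun, 0.58 for Junb, 0.83 for Jund, 1.59 for Atf3, 1.11 for Batf and 1.61 for Batf3. Junb had the smallest excess of the 8, and Batf3 rests on 25 to 92 counts per TAM library. The MDSC side of each value rests on 2 libraries per genotype, and replicate 2 of MDSC Shp2f/fLysMcre carried stroma transcripts. All 8 passed again without that library and under each other setting tried. Groups of 2 or 3 libraries were too small to test a library against its group.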

How the results depend on the processing

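In TAM the 10 members kept their direction under every setting tried, and 10 were called with each library left out. Fosl2 was not called with total-count scaling (0.06) or in 1 fit of all libraries (0.19), where Maff (0.27) was not called either and 4837 genes passed in place of 7257. Leaving out each TAM library gave 6176 to 7317 genes. With total-count scaling Fosl2 stood 0.17 above the median of all genes in TAM.

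In MDSC the number of genes called was 633, and it was 1256 with DESeq2, 130 without a filter on low counts, 2666 in 1 fit of all libraries and 1 to 4406 with each library left out. The members called numbered 1 in the fit of all libraries (Fos, -0.27) and 0 to 4 with each library left out. Across those left-out libraries Fosb ran from -0.37 to 0.087, Jund from -0.36 to 0.019, Batf3 from -0.47 to 0.097, Fosl2 from -0.27 to 0.0052 and Maff from -0.42 to 0.40. The opposite sign came without replicate 1 of MDSC Shp2f/fLysMcre for Fosb, Jund and Batf3, without replicate 2 for Fosl2 and Maff, and without replicate 2 of MDSC Shp2f/f for Maff (-0.028), and none of these 6 values was called. In the interaction 8 to 9 members and 2446 to 7023 genes were called with each library left out, the count being 2519 and 2446 without replicates 1 and 2 of MDSC Shp2f/f and 7023 without replicate 1 of MDSC Shp2f/fLysMcre, and Maff turned to -0.18 without the last of these. Fosl2 passed there with DESeq2 (0.33) and without replicate 1 of MDSC Shp2f/fLysMcre (0.43), and Maff without replicate 2 (0.69). In TAM against MDSC of Shp2f/f mice 8 to 9 members and 11745 to 11915 genes were called, Atf3 passing at -0.12 without replicate 1 of MDSC Shp2f/f and turning to 0.018 without replicate 2. In Shp2f/fLysMcre mice 9 to 10 members and 7813 to 11587 genes were called, Jund falling short without replicate 1 of TAM Shp2f/fLysMcre (0.49) and with total-count scaling (0.31). The causes were not tested.

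Deviations of same-numbered libraries from their group means correlated at -0.15, 0.09 and 0.02 in TAM and at 0.28 in MDSC. With 2 libraries per group the deviations are mirror images, so the 2 MDSC pairs give 1 value. Between MDSC and TAM of 1 genotype, whose mice the methods give as the same, same-numbered libraries correlated at 0.019 and 0.026 in Shp2f/f. In Shp2f/fLysMcre they correlated at 0.026 and -0.15. Values so constrained cannot decide whether libraries are paired. The numbers were not taken as pairs, since the labels tie no library to a mouse. With the replicate block, edgeR called 2674 genes and 0 members in MDSC (2 at an unadjusted p under 0.05), the interaction gained Fosl2 (0.30), and Jund (0.55) fell short in TAM against MDSC of Shp2f/fLysMcre mice. The block changed no other member's call in the 5 comparisons. On total-count CPM, 14 of the 40 group levels moved by more than their SD, Fos in TAM Shp2f/fLysMcre reading 2594 CPM.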
